A study of Mus musculus with 15 samples.

Results

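Cell cycle and DNA replication genes were followed through 15 RNA-sequencing libraries of the foetal mouse cerebral cortex and of neurons cultured from it. The set was a list of named S-phase and G2/M genes together with the G1 regulators that precede them, looked up by Entrez identifier in the count table of the series. All 48 listed genes were found among the 23132 genes kept. They comprised 8 regulators of G1 and the G1/S transition, 17 genes of S phase and DNA replication and 23 genes of G2 and mitosis. The rule names the genes and sets no threshold on their values.

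The study asked how the brain develops without PHF6, a chromatin-associated PHD finger protein that is mutated in Börjeson-Forssman-Lehmann syndrome, a form of X-linked intellectual disability. RNA was sequenced from whole dissected cerebral cortex at E15.5 (embryonic day) and from E16.5 cortices that were dissociated and cultured for about a day in a medium that favours neurons. The cortex libraries came from 3 Phf6 +/Y controls and 5 Phf6 -/Y foetuses, which carry a germline deletion of the floxed exons made with a Cre-deleter line. The neuron libraries came from 3 Phf6 +/Y NesCre T/+ controls and 4 Phf6 lox/Y NesCre T/+ foetuses. In the neurons the floxed allele was deleted by Cre from the nestin promoter, which is active in neural progenitors, and the controls carried the same transgene. All foetuses were males on a C57BL/6 background and each library was an individual mouse. The labels gave litters 1, 2 and 3 for the cortices and litters 4, 5, 6 and 7 for the neurons. Litter 7 held a Phf6-deleted sample without a control.

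The cell cycle is driven by cyclins and their kinase partners. In G1 the D-type cyclins with CDK4 and CDK6 phosphorylate the retinoblastoma protein, which frees E2F transcription factors to switch on cyclin E and the replication genes. CDC6 and CDT1 then load the MCM helicase onto replication origins, and DNA polymerase alpha with primase, the sliding clamp PCNA and the enzymes that supply deoxynucleotides carry S phase. A later wave of transcription supplies cyclin A, cyclin B, CDK1, the Aurora and Polo kinases, the spindle checkpoint and the mitotic kinesins. In the foetal cortex the dividing cells are the radial glia of the ventricular zone and the intermediate progenitors of the subventricular zone, whereas the neurons they give rise to leave the cycle. The summed level of these transcripts in a bulk library therefore depends on how many cells divide as well as on how much of each RNA a dividing cell holds, and fewer cells of a type and less RNA per cell cannot be told apart here.

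The libraries held between 16858007 and 31157700 counted reads. Levels are given as CPM, which are read counts divided by the scaled size of each library. Phf6 itself was at 177, 149 and 191 CPM in control cortices and at 42.4 to 55.2 CPM in Phf6 -/Y cortices. The control neurons held 228 to 259 CPM and the Phf6-deleted neurons 59.9 to 85.8 CPM, and the groups did not overlap in either tissue. The counts are taken over the whole gene, so they include exons that the deletion leaves in place. Markers of the labelled tissue were present in every library: the 8 postmitotic neuron genes summed to 5048 to 6734 CPM in cortices and 8997 to 10135 CPM in cultured neurons. The cortices also held other cells, with 5 endothelial genes at 120 to 268 CPM and 4 choroid plexus genes at 7.52 to 447 CPM. In the cultures the endothelial genes summed to 3.37 to 6.94 CPM, and up to 3 of the 5 were without a read in a control library.

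Promoter sequences are shown for members of each phase because transcription of S-phase and mitotic genes is known to run through different promoter elements. The E2F site serves the first wave. The second wave uses the CCAAT box, bound by NF-Y, and the cell cycle genes homology region (CHR), bound by the DREAM and MYB-MuvB complexes. RefSeq promoters of build GRCm38.p6, each 250 bases before to 50 bases after an annotated start, were matched for 38 of the 48 members and gave 40 promoters. Ccnd1, Ccnd2, Ccne2, Mcm4, Gins2, Ccna2, Cdc25c, Aurkb, Kif20a and Tpx2 had no entry. Both strands were searched for CCAAT, for TTTGAA as the CHR and for TTTCGCGC, TTTCCCGC, TTTGGCGC or TTTGCCGC as the E2F site. Matches of different elements shared bases in 1 of the 40 promoters.

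Over all 32851 promoters of the table, 37.4% held a CCAAT box, 17.9% a CHR and 2.26% an E2F word. Of the 17 promoters of S-phase members, 8 held an E2F word, 13 a CCAAT box and 1, that of Mcm2, a CHR. Of the 18 promoters of G2 and mitosis members, 1 held an E2F word, 16 a CCAAT box and 13 a CHR. Among the 5 promoters of G1 members a match was found in Cdk2 alone, which held a CCAAT box and an E2F word. The windows of E2f1, Cdk6, Cdc6 and Aurka lay wholly inside the counted gene, as did a window of Mcm7 and a window of Uhrf1, which each had another. In others, among them Mki67, Pola1 and Tk1, the start lay inside the gene but the window reached past its outer end. The outer ends of E2f1, Cdk6, Cdc6 and Aurka were not searched, so a window without a match does not describe every promoter of its gene. A match describes letters in a window and was not tested as a binding site.

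**Figure D1:**
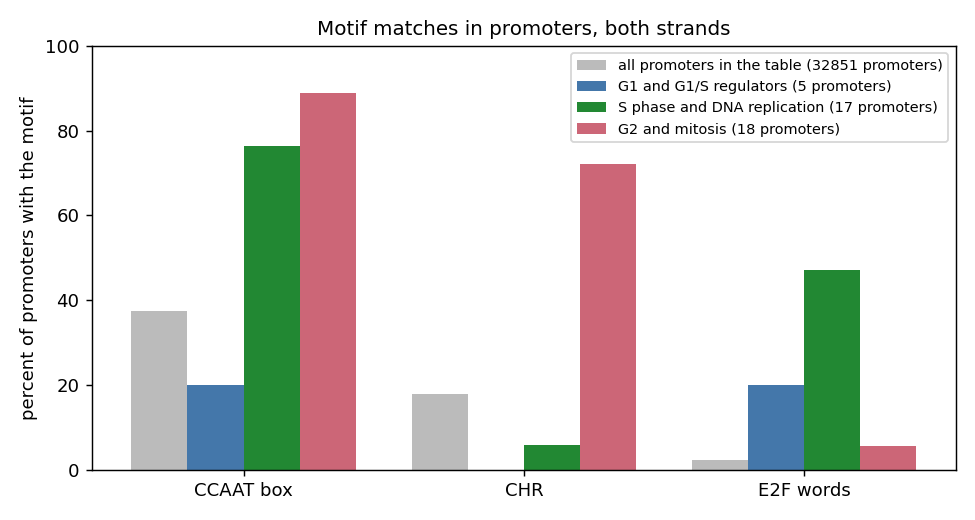
Share of promoters, in percent, that hold each of 3 elements (CCAAT box, CHR, E2F word) in the 300-base window, for the members of each phase and for all promoters of the table. E2F words stand out in the S-phase bars (47.1% against 2.26% of all promoters) and the CHR in the G2 and mitosis bars (72.2% against 17.9%).

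The promoters below are those of the members with the largest difference between tissues in each phase among promoters holding a match, written 5′ to 3′ on the strand of the gene, with the matched letters in capitals. CDK2 is the kinase partner of cyclins E and A, CDC6 and CDT1 license replication origins, the Ki-67 protein coats mitotic chromosomes and BUB1 is a spindle checkpoint kinase.
Cdk2, chr10:128705002-128705301, minus strand: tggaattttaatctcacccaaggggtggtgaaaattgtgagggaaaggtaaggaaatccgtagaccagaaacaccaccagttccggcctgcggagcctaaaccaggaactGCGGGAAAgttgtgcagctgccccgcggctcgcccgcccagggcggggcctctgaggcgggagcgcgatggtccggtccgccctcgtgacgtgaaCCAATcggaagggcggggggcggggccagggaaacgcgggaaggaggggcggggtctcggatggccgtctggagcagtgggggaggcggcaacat
Cdc6, chr11:98907901-98908200, plus strand: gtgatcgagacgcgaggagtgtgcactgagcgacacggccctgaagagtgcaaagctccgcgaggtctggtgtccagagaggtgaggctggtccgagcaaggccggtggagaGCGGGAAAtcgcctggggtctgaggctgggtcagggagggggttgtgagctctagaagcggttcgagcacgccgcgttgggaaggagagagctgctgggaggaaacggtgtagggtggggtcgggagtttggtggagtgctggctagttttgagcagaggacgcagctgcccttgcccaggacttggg
Cdt1, chr8:122567765-122568064, plus strand: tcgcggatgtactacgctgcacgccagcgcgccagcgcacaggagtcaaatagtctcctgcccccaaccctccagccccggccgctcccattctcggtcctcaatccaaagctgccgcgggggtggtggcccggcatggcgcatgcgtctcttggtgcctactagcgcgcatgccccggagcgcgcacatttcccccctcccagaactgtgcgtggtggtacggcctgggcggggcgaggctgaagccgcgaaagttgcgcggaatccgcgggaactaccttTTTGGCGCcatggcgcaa
Mki67, chr7:135716330-135716629, minus strand: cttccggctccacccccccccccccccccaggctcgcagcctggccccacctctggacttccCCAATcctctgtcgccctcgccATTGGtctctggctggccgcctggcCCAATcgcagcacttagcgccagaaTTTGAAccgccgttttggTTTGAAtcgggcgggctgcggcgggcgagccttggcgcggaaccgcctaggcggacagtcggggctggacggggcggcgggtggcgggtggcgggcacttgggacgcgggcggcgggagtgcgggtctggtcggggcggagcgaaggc
Bub1, chr2:127831810-127832109, minus strand: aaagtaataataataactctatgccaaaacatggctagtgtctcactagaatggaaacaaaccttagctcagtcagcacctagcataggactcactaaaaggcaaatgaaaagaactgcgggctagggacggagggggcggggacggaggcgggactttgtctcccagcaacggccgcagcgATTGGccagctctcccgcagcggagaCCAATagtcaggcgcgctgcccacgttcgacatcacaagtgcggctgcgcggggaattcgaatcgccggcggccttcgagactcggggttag

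In Cdk2 and Cdc6 the E2F word TTTCCCGC lay on the opposite strand, so it is read above as its reverse complement, with its first letter 140 and 138 bases before the start. In Cdt1 the word TTTGGCGC lay after the start, at base 283 of the window. The promoter of Mki67 held 3 CCAAT boxes between 188 and 141 bases before the start and 2 CHR words at 116 and 98 bases before it. That of Bub1 held CCAAT boxes 68 and 42 bases before the start and no CHR word. The E2F words sat in the printed G1 and S-phase promoters and the CHR words in that of Mki67.

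Levels of different genes were compared per kilobase of the counted gene length. In control cortices Cdk4, the G1 kinase, was the most abundant member at 442 CPM per kilobase, followed by Ccnd2 (cyclin D2) at 144, the mitotic ubiquitin-conjugating enzyme Ube2c at 96.9, topoisomerase Top2a at 91.1 and the helicase subunit Mcm7 at 82.4. Ccne2, Cdk6 and Cdc6 were lowest, at 3.53, 4.26 and 4.54 CPM per kilobase. In control neurons Cdk4 led again at 325 CPM per kilobase, ahead of Ccnd2 at 45.8, Mcm7 at 40.2 and Pcna at 38.9, and Cdc6 was lowest at 0.837. The order within a tissue was not tested.

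Each phase was summarised as the mean log2 CPM of its genes. The S-phase mean was 6.23 ± 0.15 (SD, n = 3) in control cortices, 6.11 ± 0.14 (n = 5) in Phf6 -/Y cortices, 4.59 ± 0.37 (n = 3) in control neurons and 4.55 ± 0.25 (n = 4) in Phf6-deleted neurons. The mean of G2 and mitosis was 6.41 ± 0.16, 6.36 ± 0.21, 4.70 ± 0.35 and 4.57 ± 0.29 in the same order, and that of G1 was 5.86 ± 0.14, 5.80 ± 0.13, 4.48 ± 0.34 and 4.41 ± 0.17. In all 3 phases the cortices were high and the neurons low, with no overlap, while the genotypes overlapped within each tissue.

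**Figure D2:**
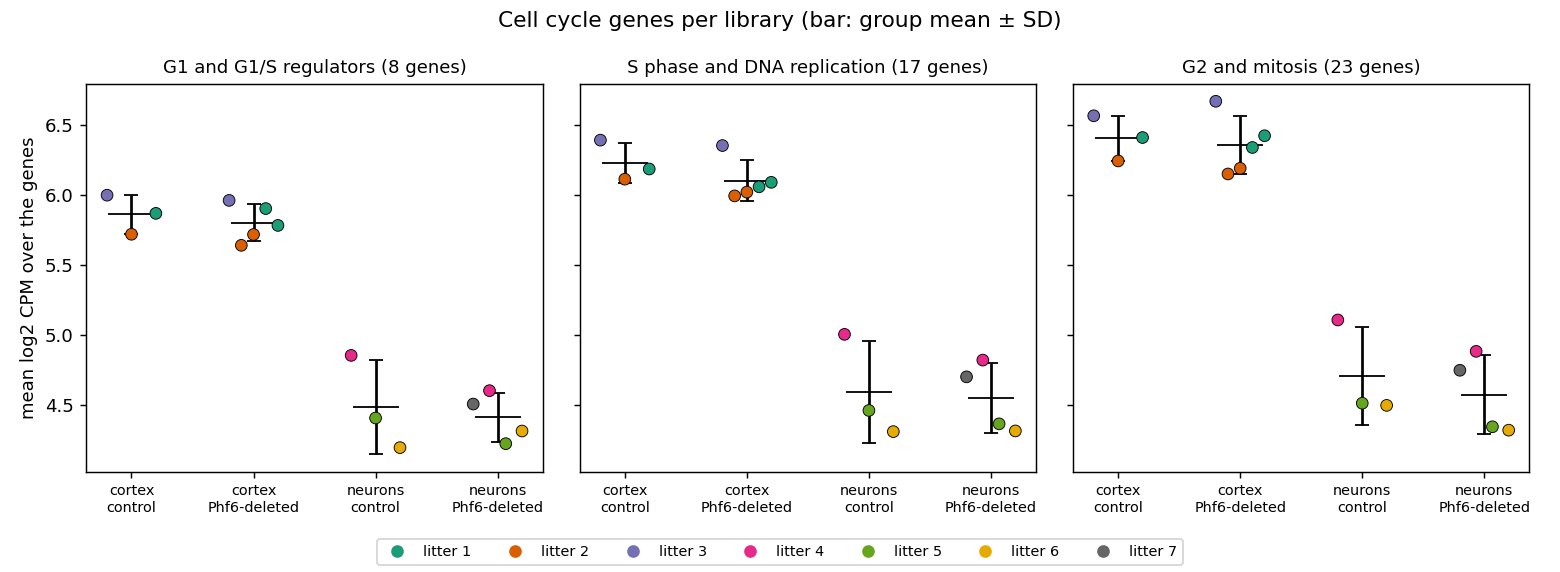
Mean log2 CPM of the members of each phase (vertical axis) in every library, by group (horizontal axis), 1 point per library with the group mean and SD. The S-phase points of the cortices lie between 6.00 and 6.40 and those of the neurons between 4.31 and 5.00, and the points of the genotypes overlap within each tissue.

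The first comparison set control neurons against control cortices. All 48 members were lower in the neurons (edgeR quasi-likelihood test, false discovery rate (FDR) below 0.05), where 26.4% of the 14320 genes tested were lower. The median log2 difference was -1.17 for G1 regulators, -1.62 for S-phase genes and -1.72 for G2 and mitosis genes, against -0.03 over all genes. In the Phf6-deleted libraries, which the first contrast does not use, all 48 were lower as well, against 31.1% of the 14416 genes tested. The medians were -1.45, -1.58 and -1.74. Neither contrast had a litter term. The 5 Phf6 -/Y cortices came from 3 litters, so litter-mates were counted as separate samples. Apart from litter 7 the deleted libraries came from the same litters as the controls, so the second contrast is not a separate set of litters.

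Among the G1 regulators, Ccnd1 (cyclin D1) differed most. It was at 123, 83.5 and 91.4 CPM in the control cortices and at 20.3, 17.0 and 11.2 CPM in the control neurons, a level 6.14-fold lower in neurons (log2 difference -2.62 ± 0.24 SE, edgeR FDR 7.78e-05). Every neuron library lay far below every cortex. Ccnd2 stood at 849, 758 and 891 CPM in cortices and 333, 233 and 228 CPM in neurons, 3.15-fold lower, and Cdk2 at 42.6 ± 7.66 against 11.4 ± 6.38 CPM (mean ± SD, n = 3 each), 3.72-fold lower. The smallest difference belonged to Cdk4, at 637, 576 and 573 CPM in cortices and 491, 449 and 371 CPM in neurons, 1.37-fold lower (log2 -0.45 ± 0.10 SE, FDR 0.00194). Its cortical and neuronal controls did not overlap, but with the Phf6-deleted libraries included they did, since replicate 4 of the Phf6 -/Y cortices had 488 CPM. E2f1, the transcription factor that opens S phase, was 1.83-fold lower (39.4 ± 5.51 against 21.5 ± 4.82 CPM) and Ccne1 (cyclin E1) 1.98-fold lower (14.1 ± 0.209 against 7.17 ± 0.640 CPM).

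In S phase the licensing factors differed most. Cdc6 was at 24.1, 18.7 and 21.3 CPM in control cortices and 5.68, 3.18 and 2.94 CPM in control neurons, 5.38-fold lower (log2 -2.43 ± 0.24 SE, FDR 5.04e-06). Cdt1 was at 33.5 ± 6.13 against 6.69 ± 3.97 CPM, 4.97-fold lower, and Uhrf1, which couples replication to maintenance of DNA methylation, at 131 ± 18.9 against 27.6 ± 10.0 CPM, 4.73-fold lower. The groups did not overlap for any of these. The helicase subunit Mcm2 was at 162, 130 and 127 CPM in cortices and 47.3, 34.9 and 28.6 CPM in neurons, 3.79-fold lower. At the other end stood the primase subunit Prim1 (46.1 ± 6.06 against 26.9 ± 3.65 CPM, 1.72-fold), the sliding clamp Pcna (97.0, 81.5 and 90.8 against 54.6, 47.1 and 45.3 CPM, 1.84-fold) and Mcm7 (197 ± 12.7 against 96.3 ± 16.2 CPM, 2.05-fold). Of the other MCM subunits Mcm3 was 4.61-fold, Mcm5 3.76-fold, Mcm4 2.47-fold and Mcm6 2.43-fold lower.

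The mitotic genes were the most uniform phase, with folds from 2.37 to 4.04, compared with 1.37 to 6.14 in G1 and 1.72 to 5.38 in S phase. Mki67 was at 417, 327 and 433 CPM in control cortices and 135, 70.5 and 91.4 CPM in control neurons, 3.96-fold lower (log2 -1.99 ± 0.26 SE, FDR 0.00146). Top2a, which untangles DNA before chromosome segregation, was at 496, 449 and 482 against 171, 109 and 124 CPM, 3.54-fold lower. In both genes the lowest cortex was above the highest neuron library by a wide margin. Aurkb, the chromosomal passenger kinase, differed most (58.0 ± 10.8 against 14.4 ± 3.86 CPM, 4.04-fold), with Bub1 close to it (59.6 ± 5.73 against 15.7 ± 3.82 CPM, 3.78-fold). Ccnb1 (cyclin B1), at 52.0, 36.0 and 47.4 against 27.3, 15.8 and 14.1 CPM, differed least, by 2.37-fold (FDR 0.00568). Aurka, the centrosomal Aurora kinase, was 2.47-fold lower (44.2 ± 7.79 against 17.9 ± 3.30 CPM) and Cdc25c, the phosphatase that activates CDK1, 2.49-fold lower (25.2 ± 3.26 against 10.1 ± 1.90 CPM).

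Across all 15 libraries, 47 of the 48 members were lower in every neuron library than in every cortex, where 19.4% of 15001 genes were. The exception was Cdk4. No member was absent from the neurons: the lowest count of any member in any library was 51 reads, for Ccne2.

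**Figure D3:**
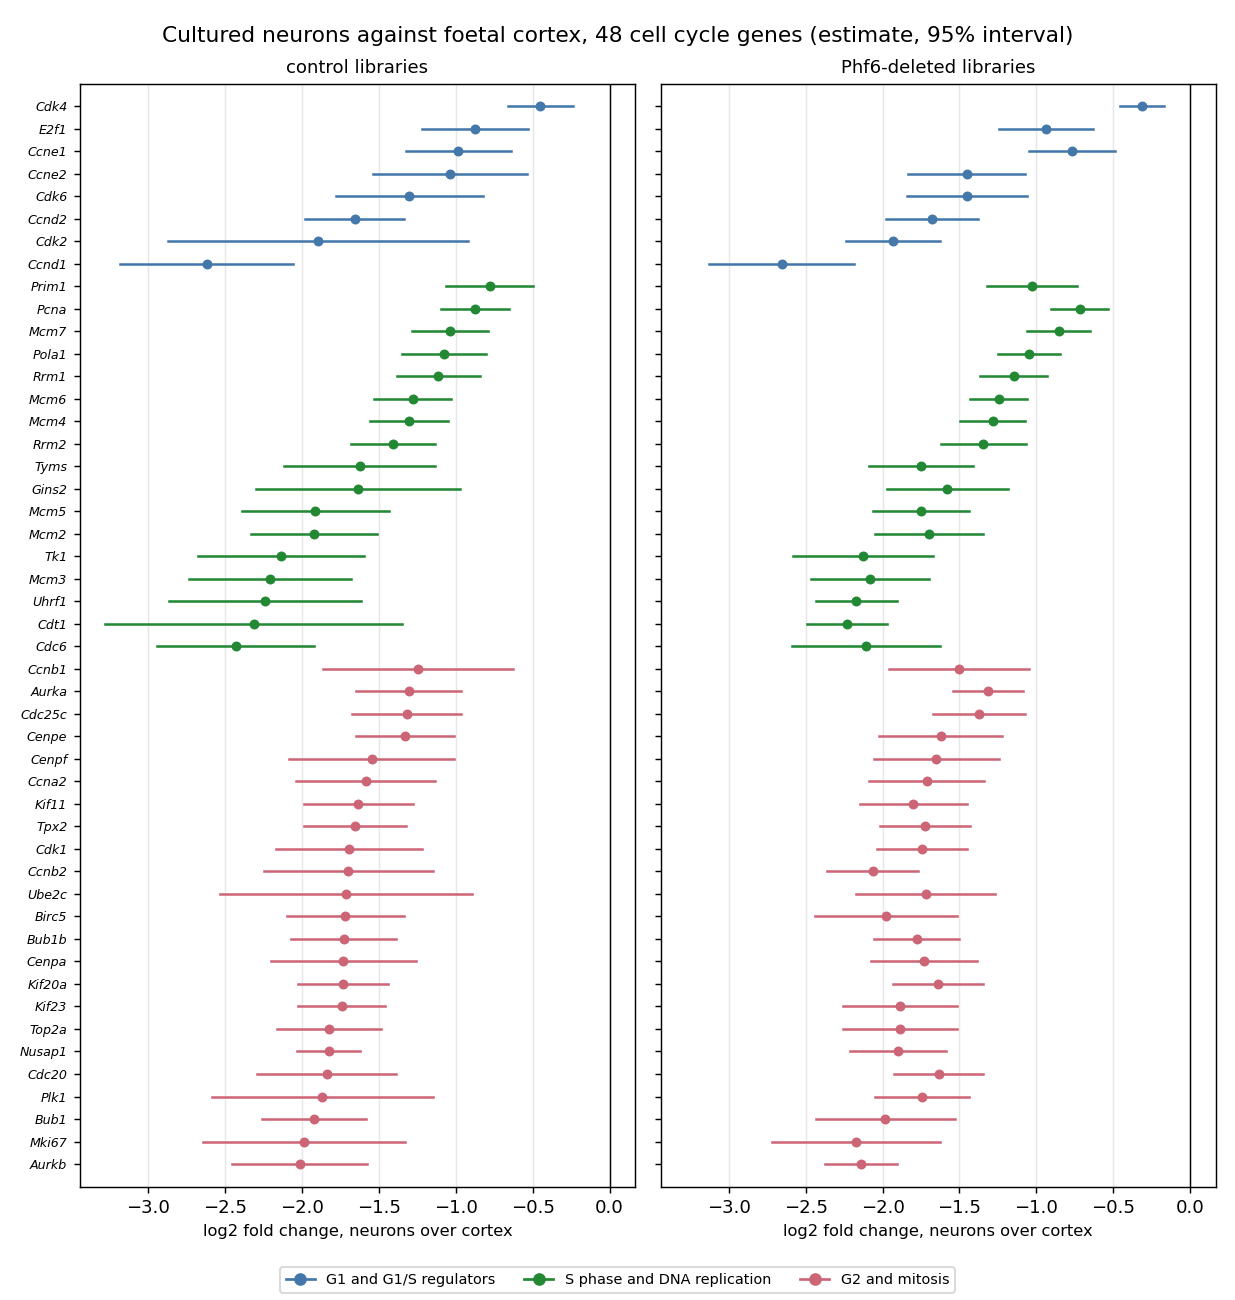
Log2 difference of neurons minus cortex (horizontal axis) with its 95% confidence interval for each of the 48 members (vertical axis, by phase), in controls and in Phf6-deleted libraries. All points lie left of 0, from Ccnd1 at -2.62 to Cdk4 at -0.45 in controls, and the G2 and mitosis genes span the narrowest range.

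The wider pathway was read from lists of other genes. Of all genes tested, 26.4% were lower in control neurons. Of 26 other mitotic genes, all 26 were lower in control neurons, among them Incenp (log2 -1.54, FDR 2.35e-07) and Kif4 (-1.70, FDR 4.89e-07). Of 24 other replication genes 22 were lower, led by p-value by the ligase Lig1 (-1.38) and the polymerase subunit Pold1 (-1.75), and of 9 other E2F and DP factors 7 were lower, with E2f7 at -1.39 and E2f2 at -2.17. The CDK inhibitors and pocket proteins were mixed. Of 10 listed 8 were tested, and 2 were higher, close to the share of all genes, 24.7%. They were the inhibitor Cdkn1b (137 ± 17.4 against 176 ± 6.94 CPM, log2 0.36, FDR 0.00654) and Rb1 (97.3 ± 8.08 against 137 ± 12.3 CPM, log2 0.49, FDR 7.44e-04). The 4 that were lower were Rbl1 (-1.66), Cdkn2c (-1.15), Cdkn1c (-0.40) and Cdkn2d (-0.26).

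Markers of cell types moved with the tissue, where 26.4% of all genes tested were lower in control neurons and 24.7% higher. All 8 radial glia genes were lower in control neurons, with a summed level of 1911 to 1948 CPM in cortices and 504 to 681 CPM in neurons, and so were 3 of 4 intermediate progenitor genes (684 to 788 against 312 to 495 CPM). Of 8 postmitotic neuron genes 6 were higher and 1, Tbr1, was lower (5928 to 6502 against 8997 to 10030 CPM). All 6 genes of ganglionic eminence cells and interneurons were lower (582 to 761 against 152 to 242 CPM). Genes of other cell types were also lower: 5 of 5 endothelial (142 to 172 against 3.37 to 3.64 CPM), 4 of 4 mural (80.4 to 95.6 against 2.91 to 4.47 CPM), 3 of 4 microglial (26.8 to 44.0 against 12.6 to 14.6 CPM) and both erythroid genes tested (95.2 to 129 against 5.92 to 12.3 CPM). Of 3 astrocyte genes tested, Gfap was higher and Aldh1l1 lower (30.5 to 40.0 against 19.7 to 25.0 CPM). None of 4 meningeal genes was called, though their sum was 7.16 to 148 CPM in cortices and 1.98 to 5.04 CPM in neurons and 1 had an unadjusted p below 0.05. Of the 2 choroid plexus genes tested 1, Otx2, was lower (sum of all 4, 9.73 to 447 against 1.93 to 2.75 CPM). Their part in the difference of the cell cycle genes was not tested. Embryonic day, dissociation, culture and the NesCre transgene all went with the tissue and cannot be told apart.

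The second comparison asked whether loss of Phf6 altered the cell cycle genes in the cortex. None of the 48 members passed an FDR of 0.05 with edgeR, limma or DESeq2, where 0.386% of the 14750 genes tested with edgeR did. At an unadjusted p below 0.05, 9 members were lower with edgeR (9 with limma, 7 with DESeq2), where 4.77% of all genes were, and 3 were higher (3 with limma, 3 with DESeq2), where 5.69% were. The 3 of 48 with higher values were close to the share of all genes. The median log2 difference of Phf6 -/Y minus control was -0.11 for G1 regulators, -0.11 for S-phase genes and -0.02 for G2 and mitosis genes, against -0.0021 over all genes. Negative values numbered 6 of 8, 15 of 17 and 16 of 23 in these phases, where 7462 of the 14750 genes tested were negative. The genes of a phase were read from the same libraries, so their signs are not separate observations. The 95% intervals of 46 members lay within 0.5 of 0 on the log2 scale and those of all 48 within 1.

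Of the 9 genes with lower values, 6 belonged to S phase: Mcm2, Mcm3, Mcm5, Mcm7, Pcna and the thymidine kinase Tk1. Mcm7 was at 209, 200 and 184 CPM in controls and 189, 163, 174, 159 and 163 CPM in Phf6 -/Y cortices (log2 -0.20 ± 0.06 SE, edgeR FDR 0.233). The groups overlapped through Phf6 -/Y replicate 1, from litter 3, whose litter-mate control was the highest. Pcna was at 97.0, 81.5 and 90.8 CPM in controls and 88.6, 72.7, 69.1, 74.6 and 81.1 CPM in Phf6 -/Y cortices (log2 -0.20, FDR 0.293). Mcm2 was at 162, 130 and 127 CPM in controls and 144, 108, 117, 118 and 114 CPM in Phf6 -/Y cortices (log2 -0.17, FDR 0.330), overlapping in the same library.

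Cdk4 was at 637, 576 and 573 CPM in control cortices and 558, 495, 533, 488 and 508 CPM in Phf6 -/Y cortices (log2 -0.19 ± 0.06 SE, FDR 0.257), without overlap. The remaining lower values were those of Cdk1, the mitotic kinase (88.5 ± 10.7 against 77.8 ± 10.9 CPM, log2 -0.16, FDR 0.438), and Ccne1 (14.1 ± 0.209 against 11.6 ± 1.22 CPM, log2 -0.28, FDR 0.457). Ccnd1 had the lowest p of all members and a higher value in Phf6 -/Y cortices, at 123, 83.5 and 91.4 CPM in controls and 179, 97.8, 103, 106 and 93.9 CPM after deletion (log2 0.29 ± 0.08 SE, FDR 0.194). Here the highest library of each genotype came from litter 3. Mki67 was at 417, 327 and 433 against 521, 380, 348, 492 and 487 CPM (log2 0.20, FDR 0.269), and the kinetochore protein gene Cenpf at 142 ± 9.92 against 162 ± 27.2 CPM (log2 0.18, FDR 0.465). The genotypes overlapped in all 3.

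Among other members of long-standing use as cycle markers, Top2a was at 475 ± 24.1 CPM in controls and 468 ± 72.3 in Phf6 -/Y cortices (log2 -0.01, 95% interval -0.16 to 0.15), Ccnb1 at 45.1 ± 8.24 and 43.5 ± 8.45 CPM (-0.0037, -0.21 to 0.20), and Ccnd2 at 833 ± 68.1 and 843 ± 155 CPM (-0.0021, -0.21 to 0.20). E2f1 was at 39.4 ± 5.51 and 35.3 ± 5.47 CPM (-0.11, -0.28 to 0.06) and was below the control of its litter in every Phf6 -/Y cortex. The sign of the Ccnd2 value was positive under other scalings (0.0030 with relative log expression, 0.0020 with library totals), and that of Ccnb1 with relative log expression (0.0016). Within litters, 12 of 48 members were lower in every Phf6 -/Y cortex than in the control of the same litter, where 8.72% of all genes were, and 7 of the 12 were S-phase genes. In the opposite direction the count was 2 members, against 8.18% of all genes. The S-phase mean differed by -0.11, -0.11 and -0.04 in litters 1, 2 and 3. The SD between control cortices was 0.15, and as each control came from another litter it includes the spread between litters. Without single libraries the median of S phase ran from -0.13 to -0.07, the latter without Phf6 -/Y replicate 4, and that of G2 and mitosis from -0.06 without control replicate 1 to 0.02 without control replicate 2.

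The other pathway lists gave the same count in the cortex, 0 called by edgeR. Over all genes tested, 4.77% had lower and 5.69% higher values at an unadjusted p below 0.05. At an unadjusted p below 0.05, the CDK inhibitor Cdkn1a (11.2 ± 2.61 against 15.8 ± 2.16 CPM, log2 0.52, FDR 0.277) and Rb1 (97.3 ± 8.08 against 115 ± 10.4 CPM, log2 0.23, FDR 0.319) had higher values and Pold1 a lower one (log2 -0.20, FDR 0.422), and no gene among 26 other mitotic genes or 9 other E2F and DP factors had such a p. The radial glia genes summed to 1911, 1936 and 1948 CPM in controls and to 2071, 1706, 1723, 1705 and 1750 CPM in Phf6 -/Y cortices. The Phf6 -/Y cortices of litters 1 and 2 were thus below every control and that of litter 3 above every control. None of the 8 genes was called, and 1, Vim, had a lower value at an unadjusted p below 0.05 (log2 -0.23, FDR 0.233). All 4 intermediate progenitor genes had negative values, with a median of -0.11 and none at that p, and their sum was 684 to 788 CPM in controls and 615 to 739 CPM in Phf6 -/Y cortices. Of 6 ganglionic eminence and interneuron genes 5 had positive values, with Gad1 (0.22, FDR 0.307) and Gad2 (0.18, FDR 0.419) at that p, as were the neuronal gene Neurod6 (-0.33, FDR 0.437) and the mural cell gene Abcc9 (0.27, FDR 0.385). No marker gene was called in the cortex, and the part of any of them in the values of the cell cycle genes was not tested. The count of 9 members with lower values moved with single libraries, being 3 without control replicate 2 and 4 without Phf6 -/Y replicate 2, and the 3 with higher values were 0 without a litter term.

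The same question was asked of the neurons. None of the 48 members passed an FDR of 0.05 with edgeR, limma or DESeq2, where 0.273% of the 13909 genes tested with edgeR did. At an unadjusted p below 0.05, 13 members were lower with edgeR (13 with limma, 5 with DESeq2), where 4.46% of all genes were, and 0 were higher with any of the 3 tools, where 5.87% were. Of the 13, 11 belonged to G2 and mitosis: Cdk1, Birc5, Ccna2, Ccnb1, Ccnb2, Kif11, Kif23, Bub1b, Tpx2, Ube2c and Mki67. The others were E2f1 and Ccne2. The median log2 difference was -0.21 for G2 and mitosis genes, -0.09 for S phase and -0.08 for G1, against 0.00097 over all genes. Of the G2 and mitosis values 22 of 23 were negative, where 6915 of the 13909 genes tested were. The 23 genes were read from the same libraries, so their signs are not separate observations.

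The mitotic kinesin gene Kif11 had the lowest p. It was at 71.0, 44.8 and 48.02 CPM in controls of litters 4, 5 and 6 and at 58.8, 40.2 and 38.6 CPM in the deleted neurons of the same litters, with 50.2 CPM in the deleted sample of litter 7 (log2 -0.25 ± 0.08 SE, edgeR FDR 0.239). Each deleted library was below its litter-mate, but the groups overlapped across litters. For Ccnb2 (cyclin B2) each deleted library was also below its litter-mate, with 21.7, 12.7 and 10.6 CPM in controls and 12.8, 9.99 and 10.0 CPM in deleted neurons of litters 4, 5 and 6. It was at 14.3 CPM in litter 7 (log2 -0.41 ± 0.15 SE, FDR 0.338). E2f1 was at 26.8, 20.3 and 17.5 CPM in controls and 20.8, 14.7 and 16.1 CPM in deleted neurons of these litters and 22.2 CPM in litter 7 (log2 -0.32 ± 0.11 SE, FDR 0.332). In all 3 genes litter 4 was the highest of the paired litters in both genotypes.

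Mki67 was at 135, 70.5 and 91.4 CPM in controls of litters 4, 5 and 6, at 130, 61.7 and 77.4 CPM in their deleted litter-mates and at 126 CPM in litter 7 (log2 -0.16 ± 0.07 SE, FDR 0.390). Ccnb1 was at 27.3, 15.8 and 14.1 CPM in controls and 22.6, 11.8, 12.1 and, in litter 7, 14.5 CPM after deletion (log2 -0.30, FDR 0.369). For both genes the means of the groups differed by less than the spread between litters, and the lower value appeared within litters. Top2a was at 135 ± 32.3 CPM in controls and 127 ± 31.1 in deleted neurons (log2 -0.12, interval -0.27 to 0.02). Birc5, which encodes survivin of the chromosomal passenger complex, was at 12.1 ± 3.00 and 9.34 ± 3.28 CPM (log2 -0.40, FDR 0.421).

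In neurons the medians of G1 and S phase were closer to 0 than that of G2 and mitosis. The fitted differences are taken within litters, so they need not equal the difference of the group means. Ccne2 was at 5.52 ± 1.44 CPM in controls and 3.79 ± 0.581 in deleted neurons (log2 -0.52 ± 0.22 SE, FDR 0.414). Mcm2 was at 36.9 ± 9.53 and 37.0 ± 9.60 CPM (log2 -0.11, interval -0.31 to 0.09), Pcna at 49.0 ± 4.96 and 47.0 ± 3.61 CPM (-0.08, -0.25 to 0.09), Cdk4 at 437 ± 60.6 and 417 ± 31.9 CPM (-0.11, -0.24 to 0.02), Ccnd1 at 16.2 ± 4.60 and 18.4 ± 2.82 CPM (0.16, -0.15 to 0.47) and Ccnd2 at 264 ± 59.2 and 264 ± 37.4 CPM (-0.03, -0.15 to 0.09). None of these members passed the FDR threshold. Intervals of 33 members lay within 0.5 of 0 on the log2 scale and those of all 48 within 1.

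Within litters, 19 of 48 members were lower in the deleted neurons of litters 4, 5 and 6 than in their litter-mate controls, where 15.7% of all genes were, and 14 of the 19 were G2 and mitosis genes. None of the 48 was higher in all 3 litters, where 16.0% of all genes were. The mean of G2 and mitosis differed by -0.22, -0.17 and -0.18 in litters 4, 5 and 6, with 1 sign and similar size in all 3. Its SD between control neurons, 0.35, includes the spread between litters, since each control came from another litter. The S-phase mean differed by -0.18, -0.10 and 0.0050 and the G1 mean by -0.25, -0.18 and 0.12, so that those phases did not share a sign across litters.

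At an unadjusted p below 0.05, 4.46% of the 13909 genes tested in neurons had lower values and 5.87% higher ones. Among the other lists, 9 of 26 other mitotic genes had lower values at that p and 0 were called by edgeR. The lowest p belonged to Racgap1, a regulator of cytokinesis (71.5 ± 16.0 against 61.3 ± 10.4 CPM, log2 -0.30, FDR 0.141), and Prc1, which bundles the spindle midzone (log2 -0.26, FDR 0.232). Of 9 other E2F and DP factors 3 had lower values at that p, with E2f6 at -0.27 and E2f3 at -0.23, of 24 other replication genes 1, Clspn at -0.34, and the CDK inhibitor Cdkn1b a higher one (176 ± 6.94 against 192 ± 27.4 CPM, log2 0.16, FDR 0.425). Among the progenitor markers 2 of 8 radial glia genes (Nes, log2 -0.29, FDR 0.0893, and Fabp7, -0.28) and 3 of 4 intermediate progenitor genes (Eomes, -0.25, Neurog2, -0.25, and Btg2, -0.22) had lower values at an unadjusted p below 0.05, and 2 of 8 postmitotic neuron genes, Rbfox3 at 0.18 and Snap25 at 0.16, had higher ones, with 0 called. The radial glia list was mixed: 3 of 8 values were positive, and the largest in size was that of Hes1 (0.43), not at that p. Of the postmitotic neuron values 3 of 8 were negative, the lowest that of Neurod6 (-0.12). Summed radial glia levels were 504 to 681 CPM in controls and 455 to 623 CPM in deleted neurons, and intermediate progenitor levels 312 to 495 and 307 to 457 CPM. In the remaining marker lists 1 gene was called, the choroid plexus gene Ttr, at 1.27 ± 0.860 CPM in controls and 9.26 ± 8.90 in deleted neurons (log2 2.84, FDR 1.88e-04). The part of any of these in the lower mitotic values was not tested.

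The count of 13 depended on the litter term and on single libraries. Without the litter term it was 1, and it was 5 without control replicate 1 or without deleted replicate 2, the paired libraries of litter 4, and 7 without control replicate 2 or deleted replicate 3, those of litter 5. Without control replicate 3, Cdk4 (log2 -0.19) and Ccnb2 (-0.57) passed an FDR of 0.05, and without deleted replicate 4 Cdk4 did (-0.20). Both libraries belong to litter 6. Without either library of litter 4 the values were smaller, at -0.21 and -0.20 for Ccnb2 (-0.41 with all libraries) and at -0.06 for Cdk4 (-0.11). The medians of S phase and G1 ran from -0.15 and -0.14 without deleted replicate 4 to -0.05 and -0.02 without deleted replicate 2, and that of G2 and mitosis from -0.22 to -0.19.

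**Figure D4:**
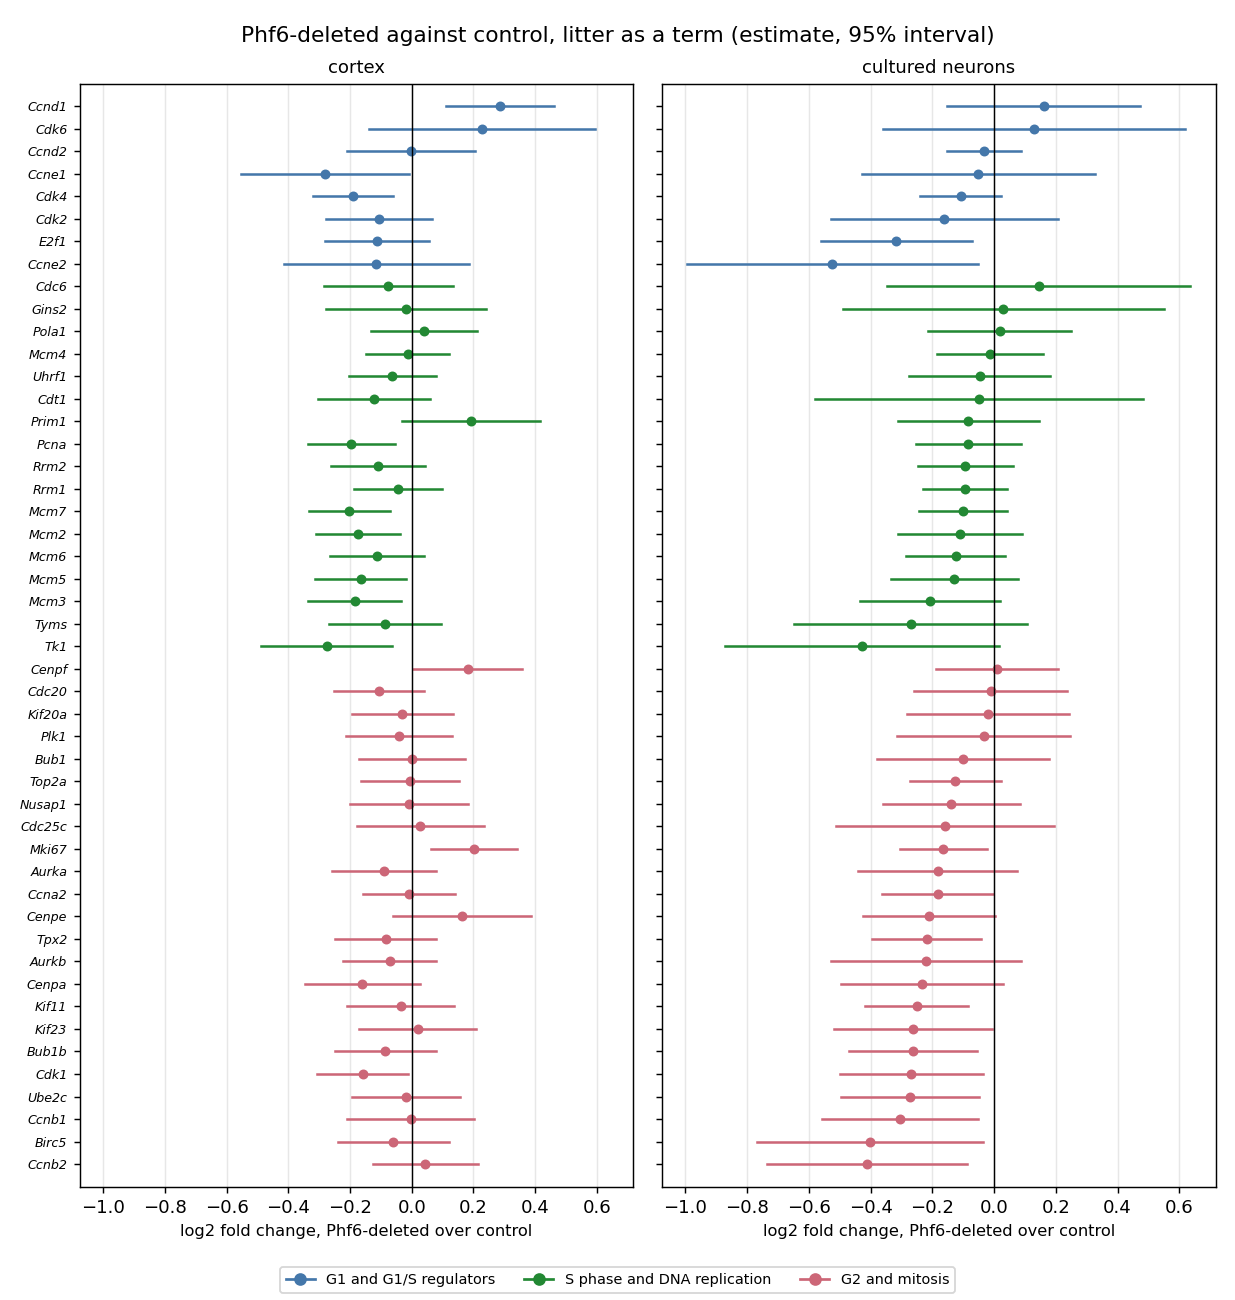
Log2 difference of Phf6-deleted minus control (horizontal axis) with its 95% confidence interval for each of the 48 members (vertical axis, by phase) in cortex and in neurons. The intervals lie within 1 of 0, and none of the values passes an FDR of 0.05. In the cortex 6 of 8 G1, 15 of 17 S-phase and 16 of 23 G2 and mitosis values are negative. In neurons 6 of 8, 14 of 17 and 22 of 23 are. Over all genes tested, 7462 of 14750 are negative in the cortex and 6915 of 13909 in neurons. Genes of a tissue share libraries, so their signs are not separate observations.

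Whether the effect of Phf6 deletion differed between neurons and cortex was tested as an interaction over all 15 libraries. No member passed an FDR of 0.05 with edgeR, limma or DESeq2, where 0.0133% of the 15001 genes tested with edgeR did. At an unadjusted p below 0.05 there were 3 of the 48 members, close to the share of all genes, 5.19%. In all 3 the effect was lower in neurons: Mki67 (log2 difference of effects -0.37 ± 0.09 SE, FDR 0.574), Ccnb2 (-0.46 ± 0.16 SE, FDR 0.808) and Cenpe, a kinetochore motor (-0.38 ± 0.15 SE, FDR 0.937). The median difference of effects was -0.18 for G2 and mitosis, 0.01 for S phase and -0.09 for G1. Of the G2 and mitosis values 21 of 23 were negative, where 7631 of the 15001 genes tested were. These values too were read from the same libraries, so their signs are not separate observations. Without single libraries the G1 median ran from -0.22 without deleted neuron replicate 4 to 0.07 without control neuron replicate 1, and the S-phase median from -0.05 to 0.03 without the same libraries, so neither kept its sign. That of G2 and mitosis ran from -0.21 to -0.13. Small differences may have been missed. On counts simulated with the same spread for every gene, 12% of genes with a true log2 difference of 0.5 and 94% of those with a difference of 1 were recovered.

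The cell cycle genes differed between litters in both tissues. Over the cortices, with genotype in the model, 6 of 48 members differed between litters at an FDR of 0.05, where 1.70% of all genes did. The 6 were Ccnd1 (FDR 0.00513), Mki67 (0.0140), Ube2c, Plk1, Cdc20 and Aurkb, which apart from cyclin D1 act in mitosis. The number of calls was 27 with DESeq2 and 16 without a filter on low counts. Litter 3 had the highest and litter 2 the lowest mean in each phase, a difference of 1.34-fold for G2 and mitosis, 1.26-fold for S phase and 1.22-fold for G1.

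Over the neurons 23 of 48 members differed between litters, where 5.01% of all genes did. The calls comprised 14 of 23 G2 and mitosis genes, 7 of 17 S-phase genes and 2 of 8 G1 regulators, and the count was 38 without a filter. Mki67 had the lowest FDR (3.66e-05), with 135 and 130 CPM in litter 4, 126 in litter 7, 91.4 and 77.4 in litter 6 and 70.5 and 61.7 in litter 5, so that litters 4 and 7 were high and litters 5 and 6 low. Top2a (FDR 9.17e-04), Ccna2 (0.00101), Ube2c (0.00162) and Ccnd2 (0.00183) came next. Litter 4 was highest and litter 6 lowest, by 1.52-fold for S phase, 1.50-fold for G2 and mitosis and 1.39-fold for G1. Progenitor markers varied with litter too, with 6 of 8 radial glia genes and all 4 intermediate progenitor genes called in neurons and 3 of 8 and 0 of 4 in the cortex, and their part in the litter differences of the cell cycle genes was not tested. Litter, dissection and culture cannot be told apart.

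**Figure D5:**
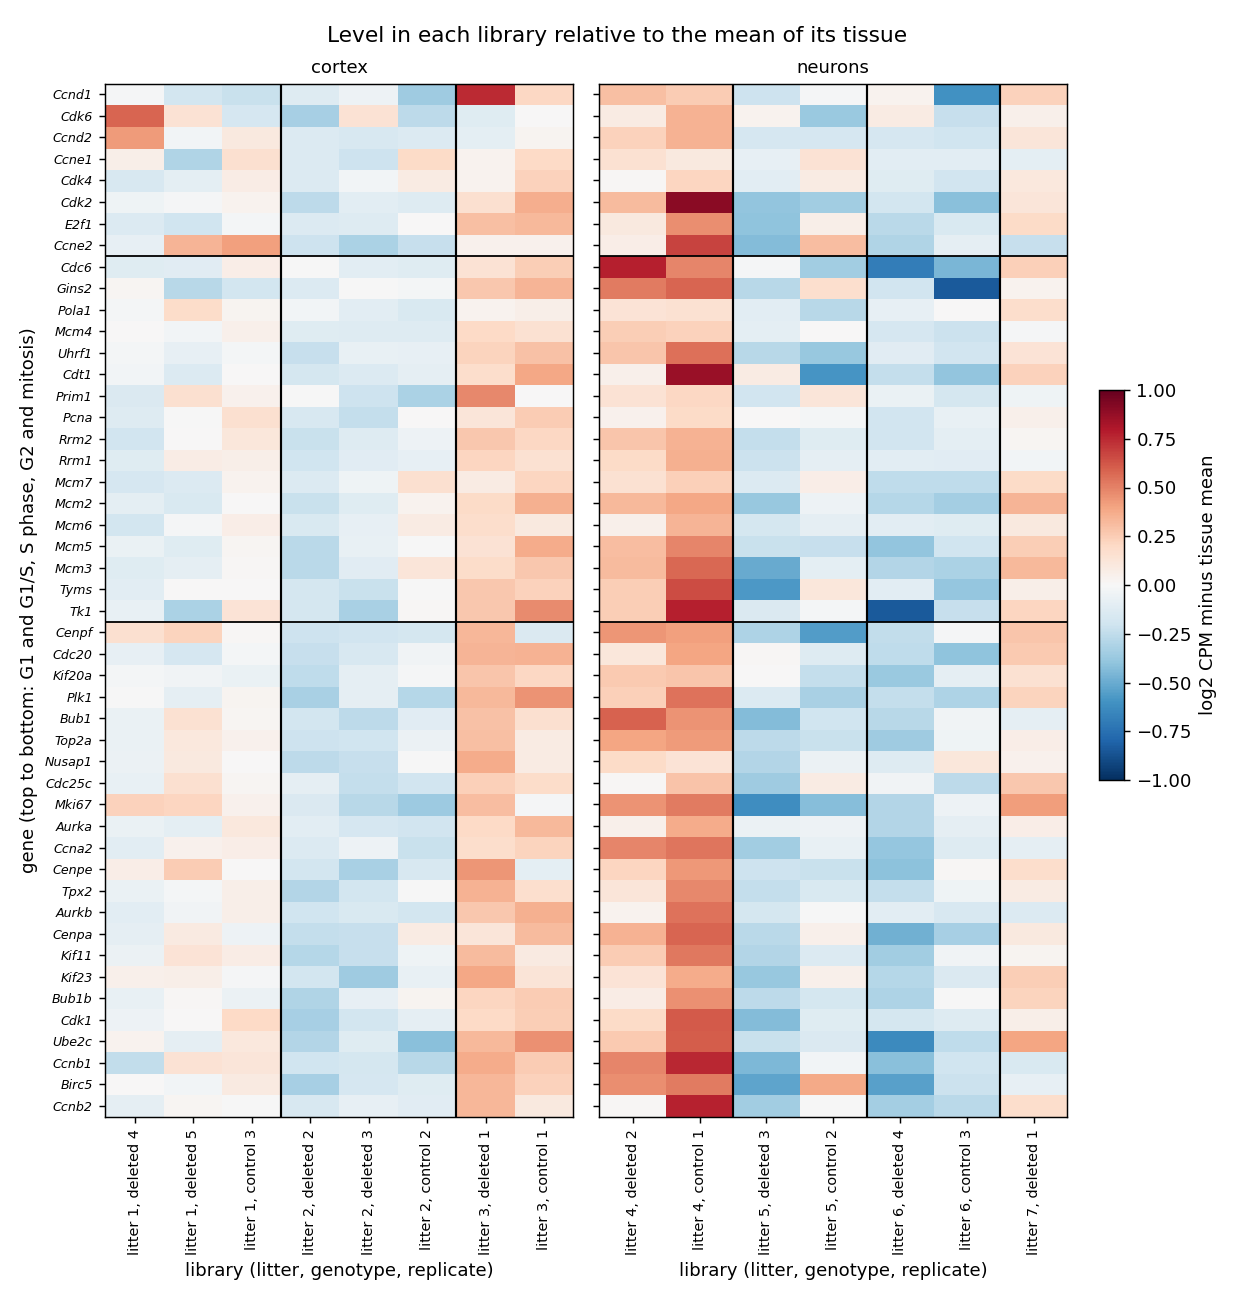
Level of each of the 48 members (vertical axis, by phase) in every library (horizontal axis, ordered by tissue and litter), as log2 CPM minus the mean of that gene over the libraries of the same tissue. Litter 3 among the cortices and litter 4 among the neurons show higher values over most of the members, and litter 2 and litters 5 and 6 lower ones.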

How the data were processed

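Per the labels and the methods of the study, libraries of polyadenylated RNA were sequenced as paired reads, demultiplexed with bcl2fastq, aligned to mm10 with Rsubread and summarised per Entrez gene with featureCounts on the inbuilt RefSeq annotation. The authors deposited raw read counts per gene, with no normalisation, in 1 table whose columns equalled the 15 per-sample files. The strand setting of the counting is not given in the sources used here, so overlapping genes on opposite strands may share reads.

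The members, gene lists and tests were chosen with earlier results of these data known. Of 27179 entries, 1029 without an identifier (0.349% to 0.605% of reads) were removed, as were 875 unmatched identifiers, 835 pseudogenes, 35 ribosomal RNA genes and 1273 genes with predicted names, which left 23132 genes. Genes passing filterByExpr were tested with edgeR 4.0.16 in R 4.3.3 (TMM scaling, robust quasi-likelihood F test), with litter as a fixed term for genotype, and p-values were adjusted by Benjamini-Hochberg over all genes tested. Litter 7, without a control, adds nothing to the genotype difference. Litter, given by the labels, is the pairing. Deviations of litter-mates from their group means correlated at -0.162 to 0.461 over 5 pairs in the cortex and at 0.102 to 0.299 over 3 pairs in neurons. Pairs from different litters ran from -0.447 to 0.168 in the cortex and from -0.294 to 0.254 in neurons, so the ranges overlapped in both tissues. The same replicate number marks litter-mates for pairs 1 and 2 of the cortex and for no other pair. CPM values are TMM-scaled. Alternatives were relative log expression scaling, library totals, limma-trend (limma 3.58.1), DESeq2 1.42.0, no filter or CPM of at least 1, no litter term, the replicate number as block and leaving out each library. The tests were checked on simulated counts: of genes changed by 0.5 on the log2 scale 52% were recovered for genotype in the cortex and 37% in neurons, and of those changed by 1 all 100% in both. The simulation gave every gene the same spread in every comparison and changed only genes with a mean count above 100. The fitted coefficient of biological variation was 0.131 in the cortex and 0.0824 in neurons, so these shares need not hold for either tissue.

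Values in every sample are given for Mki67, Top2a, Pcna, Mcm2, Ccnd1, Ccnd2, Cdk4, Ccnb1 and E2f1, for members called in a genotype test, for the 3 of lowest p per genotype comparison and for the 3 largest and 3 smallest tissue differences per phase, as each value or as the mean and SD. Other members are given by counts, ranges and group means, and pathway lists with their 2 genes of lowest p. Genes named beyond these, in the sets at an unadjusted p below 0.05 and in the marker lists, were chosen after their values were seen. Promoter sequences are those of RefSeq for GRCm38.p6, the build of mm10.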

Additional observations from a re-analysis of the deposited data

Results flagged for a closer look

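Within the Phf6 -/Y cortices (5 samples) and the Phf6-deleted neurons (4 samples), each member and each phase mean was examined for a sample standing apart from the rest of its group, 52 values per group, with Dixon's ratio of the gap to the whole range at its 95% critical value. Chance flags about 1 in 20 groups, and 6 values in the cortices and 1 in the neurons were flagged. The members were read from the same libraries and the phase means are built from them. The 52 values are therefore not separate, and the counts of flags cannot be set against that rate. Groups of 3 controls were not examined.

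Phf6 -/Y cortex replicate 1, from litter 3, was the high sample in 5 of the 6. It had 179 CPM of Ccnd1 (next highest 106), 45.0 CPM of E2f1 (next 33.4), 95.8 CPM of Cdc20 (next 71.5), 47.6 CPM of Aurka (next 39.5) and an S-phase mean of 6.36 on the log2 CPM scale (next 6.09). It is the only Phf6 -/Y sample of its litter, and the control of that litter was the highest control for all 5, at 123 CPM for Ccnd1, 45.8 CPM for E2f1, 96.4 CPM for Cdc20, 51.9 CPM for Aurka and 6.40 for the S-phase mean. Only for Ccnd1 was the Phf6 -/Y sample above that control. Phf6 -/Y cortex replicate 4 had 1117 CPM of Ccnd2 (next 817). Among the neurons, deleted replicate 2, from litter 4, had 7.73 CPM of Ccne1 (next 6.56). No member differed between tissues in its response to the deletion at an FDR of 0.05.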

How the results depend on the processing

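Between neurons and cortex, all 48 members stayed lower under every scaling, filter and tool tried, without each library, and in controls with the replicate number as block (48). Library totals moved the median of all genes from -0.03 to -0.17 in controls and to -0.19 in deleted libraries, against which the members' differences are to be read. For genotype in the cortex, members with lower values at an unadjusted p below 0.05 numbered 9, between 3 and 9 without single libraries, 6 without a litter term and 9 with the replicate number as block, and members with higher values numbered 3, 0 without a litter term and 1 with the block. For genotype in neurons the 13 members with lower values became 5 with DESeq2, 1 without a litter term and 0 with the replicate number as block in place of litter, and ranged from 5 to 17 without single libraries, while calls at an FDR of 0.05 ranged from 0 to 2. In neurons no same-numbered pair shares a litter (correlations of deviations -0.161 to 0.254). In the cortex pairs 1 (0.218) and 2 (-0.001) are litter-mates and pair 3 (-0.24) is not, so the number is no full pairing in either tissue. Under that block the neuronal values of Mki67 (0.0739), Top2a (0.01505), Mcm2 (0.0962) and Ccnd2 (0.0665) turned positive, and Mcm2 did so without a litter term (0.0071). The block changed no other call. It moved the neuronal medians to -0.0572 for G2 and mitosis and 0.0385 for S phase (-0.21 and -0.09 as reported). No member was called for genotype in the cortex, or for the difference of genotype effects between tissues, under any alternative. The litter calls became 27 with DESeq2 and 16 without a filter in the cortex (6 as reported), and 38 without a filter in neurons (23 as reported). The cause of these shifts was not tested.

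Values near 0 changed sign. In the cortex Ccnd2 was 0.0030 with relative log expression and with DESeq2, 0.0020 with library totals, 0.0015 without a filter, 0.00014 with the stricter filter and 0.0122 without a litter term, and Ccnb1 was 0.0016 with relative log expression and with DESeq2. Without single libraries the cortical values ran from -0.0804 to 0.0516 for Ccnd2, from -0.0484 to 0.0862 for Ccnb1 and from -0.0844 to 0.0845 for Top2a. In neurons they ran from -0.0678 to 0.0157 for Ccnd2 and from -0.0696 to 0.326 for Ccnd1. The differences of effects between tissues ran from -0.355 to 0.0347 for Ccnd1, from -0.0864 to 0.0491 for Ccnd2, from -0.0090 to 0.123 for Cdk4 and from -0.0219 to 0.158 for Mcm2. With 3 controls per tissue, small genotype changes may have been missed. In the simulated counts, changes of 0.5 on the log2 scale were recovered for 52% of genes in the cortex and 37% in neurons. The spread of those counts need not hold for either tissue.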

Other observations

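The Phf6-deleted neurons of litter 7 had no litter-mate control and entered no within-litter comparison. Their mean log2 CPM was 4.50 for G1 regulators, 4.70 for S-phase genes and 4.75 for G2 and mitosis genes, between the deleted samples of litter 4 (4.60, 4.82 and 4.88) and those of litters 5 (4.22, 4.36 and 4.34) and 6 (4.31, 4.31 and 4.32). The CDK inhibitor genes Cdkn2a and Cdkn2b were too low to be tested, with group means of 0.0123 to 0.0607 and 0.0427 to 0.110 CPM.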
